A study of Mus musculus with 12 samples.

Results

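Imprinted genes are expressed mainly from the allele inherited from a single parent. A differentially methylated region set in the germ line marks the parental origin of each domain, and that mark has to be kept through every cell division. Most imprinted genes sit in domains that pair coding genes with a noncoding RNA, and the best known among them act in growth, metabolism and the brain. Ythdf2 is a cytoplasmic reader protein that binds N6-methyladenosine (m6A) in mRNA and promotes the decay of the bound transcript.

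The genes described here are 39 imprinted genes of the mouse, named by symbol and looked up in a count table of 24525 genes. All 39 were found. They come from 17 domains or single loci, and 8 of them are noncoding RNAs. By the parental allele generally reported, 23 were taken as paternally expressed and 10 as maternally expressed, and 6 as imprinted in part or in some tissues.

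The libraries were made from neural stem/progenitor cells (NSPCs) of the C57BL/6 strain, taken from embryos at E14.5, grown as floating neurospheres with EGF and bFGF and harvested at passage 1. There were 3 wild-type and 3 Ythdf2-/- samples. The Ythdf2-/- allele lost the 5′ UTR and exon 1 of Ythdf2, which lay between LoxP sites, through a ubiquitously expressed Cre recombinase, so every cell of the embryo carried the deletion. The RNA is fragmented mRNA set aside as input for an m6A immunoprecipitation, and the immunoprecipitated libraries were not analysed here. The labels do not give the sex of the embryos or say how many embryos or cultures stand behind a sample, so that p-values measure only the spread between these samples. Counts from an inbred strain cannot tell the maternal from the paternal allele, so the values are total levels. In bulk RNA, fewer cells of a type and less RNA per cell cannot be told apart.

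The libraries held 11029827 to 13185778 counted reads, and the 39 genes took 0.289% to 0.328% of them. The targeted gene Ythdf2 was covered by 840, 961 and 999 reads in the wild-type libraries and by 137, 198 and 138 in the Ythdf2-/- libraries. This is a log2 fold change of -2.66 for Ythdf2-/- over wild type, with a standard error (SE) of 0.183 (adjusted p = 0.0547 by edgeR's quasi-likelihood test, Benjamini-Hochberg adjustment over all genes). The progenitor markers Nes, Sox2, Vim and Fabp7 were present in every library, and the endothelial, microglial and erythroid marker lists summed to at most 3.59 CPM (a gene's reads scaled to a common library total) in any library. The mesenchymal and meningeal list summed to 17.0 to 45.1 CPM and the choroid plexus list, mostly through Otx2, to 22.75 to 65.0 CPM. Both were highest in wild-type replicate 3. That library stood apart from the others. Of 11 neural progenitor markers, it was the highest library for 7 (Sox2, Pax6 and Sox9 among them) and the lowest for the abundant Nes, Vim and Fabp7, so that the summed CPM was 5677 against 8061 to 9259 in the other libraries. Of 8 astroglial markers it was the highest for 5, led by Gfap, and lay between the others for Aldh1l1, S100b and Slc1a2. Reads on 4 Y-linked genes summed to 1111 and 1638 in wild-type replicates 1 and 2 and to 2147 in Ythdf2-/- replicate 3, and to 0 or 1 in the other libraries. Genotype and the presence of Y-linked reads are therefore unevenly mixed, and values without wild-type replicate 3 are plotted for all genes tested and given in the text for some.

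Sequence at the promoters gives a first view of what these genes share. The hexamer TGCCGC is the site that the zinc finger protein Zfp57 binds when it is methylated, and Zfp57 helps to keep imprints in place. Promoter windows of 300 bases, from 250 before to 50 after each transcript start, came from RefSeq (GRCm38.p6, the assembly also called mm10) and were used for 31 of the 39 genes, all but H19, Rtl1, Peg10, Sgce, Nespas, Impact, Peg13 and Trappc9. TGCCGC was searched on both strands, as TGCCGC or GCGGCA. It was present in a window of 10 of these 31 genes (32.3%), while 13.1% of all 27025 genes with a window held it. The median number of CpG dinucleotides per window was 13 for the imprinted genes and 7 for all windows. A match describes the letters and is not a bound site. Genes with a hexamer that are among the 6 highest per length or range over 4-fold between libraries are shown, each as 30 bases read 5′ to 3′ on the strand of the gene, with the hexamer in capitals.
Nnat, chr2:157560093-157560122, plus strand: gccaccggggctGCGGCAttgcgcccagca
Mest, chr6:30737800-30737829, plus strand: ccttgcccGCGGCAttaacacatgggaagg
Mest, chr6:30737971-30738000, plus strand: aggaggggcgctGCGGCAggatgggcgggt
Nap1l5, chr6:58907133-58907162, minus strand: cagccattcactTGCCGCgagccgcgaagc
Nap1l5, chr6:58907082-58907111, minus strand: gccgtcagcgttTGCCGCatcttcagacgc
Commd1, chr11:22982258-22982287, minus strand: ctcagccgctggGCGGCAggccctccttag
Zim1, chr7:6696435-6696464, minus strand: gaaagtcatcccGCGGCAttccactccggg
Snrpn, chr7:60005184-60005213, minus strand: gacccctgcattGCGGCAaaaatgtgcgca
Plagl1, chr10:13090730-13090759, plus strand: ctggcgtgttgcGCGGCAaagcccacggca
The hexamer starts 27 bases after the start of Nnat and 90 bases before that of Plagl1. The pair in Nap1l5 lies 24 bases before and 27 bases after its start.

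Both H19 and Mest, which vary widely between libraries as described further on, also host a microRNA, and the host counts are not counts of the microRNA. The mature forms from RefSeq are given 5′ to 3′ with the seed, bases 2 to 8, in capitals.
mmu-miR-675-5p in H19: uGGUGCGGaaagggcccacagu
mmu-miR-675-3p in H19: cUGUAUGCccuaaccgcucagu
mmu-miR-335-5p in Mest: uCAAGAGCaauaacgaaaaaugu
mmu-miR-335-3p in Mest: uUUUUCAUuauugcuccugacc
No seed is shared among the 4.

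Of the 39 genes, 28 had enough reads for a test between genotypes. The 11 that did not pass edgeR's filter on low counts include all 6 genes of the Dlk1-Dio3 domain on chromosome 12. Dlk1, a paternally expressed transmembrane protein related to Notch ligands, had 1, 6 and 1 reads in wild type and 0, 0 and 1 in Ythdf2-/-. Meg3, the maternally expressed noncoding RNA of that domain, had 0, 3 and 14 reads against 2, 2 and 2, and Rian had 1, 4 and 4 against 3, 2 and 2. Mirg and the deiodinase gene Dio3 had 0 reads in all 6 libraries, and Rtl1 had at most 2. A count of 0 allows up to 0.222 to 0.274 CPM in these libraries (3 reads, counting error only), so that domain was at or near the limit of detection. The others below the filter were Ddc, Magel2, Nespas, Phlda2 and Slc22a18. Phlda2 was at 0 throughout, and Ddc, the aromatic amino acid decarboxylase, had 6, 9 and 44 reads in wild type and 1, 10 and 6 in Ythdf2-/-.

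The levels of the other 28 spanned more than 3 orders of magnitude in CPM. Per kilobase of exon (RPKM, computed here from the counts and the union of annotated exons), neuronatin (Nnat), a small membrane protein of the developing brain, had the highest mean at 226, with 83.0 to 450.1 across the libraries. Gnas, which encodes the stimulatory G protein alpha subunit, followed at 151 with a narrow range of 130 to 179. The exon union of Gnas joins 11 transcripts over 8192 bases, and that of Nnat joins 5 over 1336 bases. The order of these genes depends on those lengths, since in CPM Gnas was higher in every library. Commd1 at 69.7, Nap1l5 at 66.3, Mest at 58.9 and Peg10 at 44.3 came next. The ranges of Gnas and Commd1 did not overlap. Those of every other neighbouring pair in this order did, so the order within those pairs is a description of the means.

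**Figure D1:**
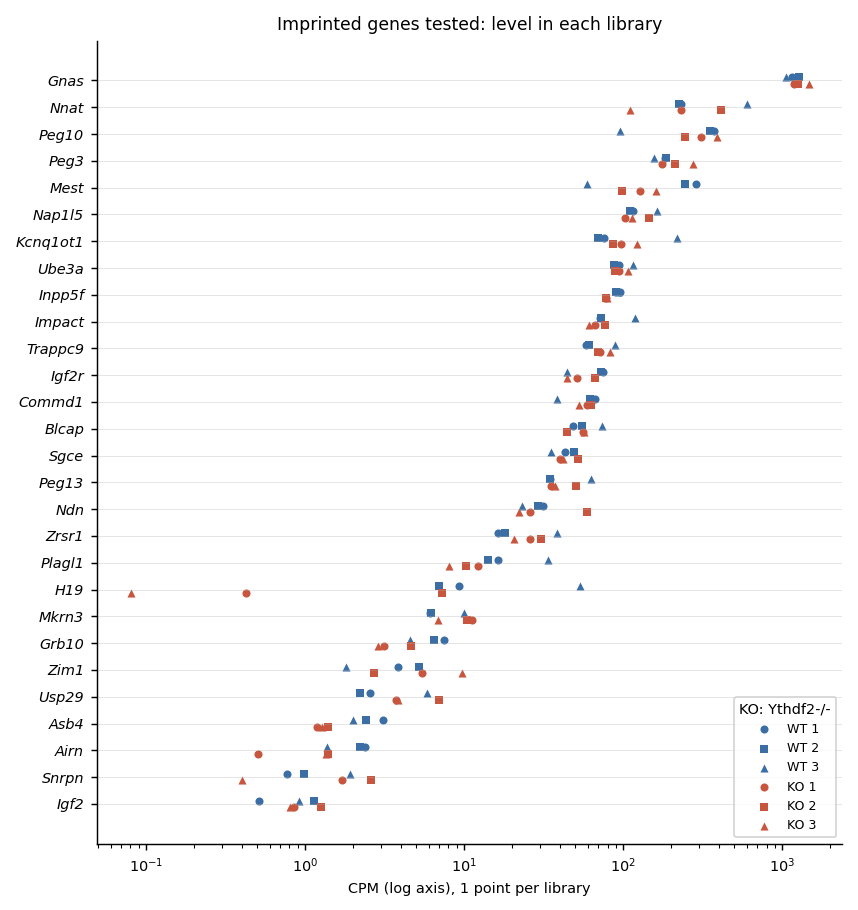
CPM of the 28 imprinted genes tested, on a log axis, with 1 point per library (blue wild type, red Ythdf2-/-, marker shape the replicate number). Gnas, at 1063 to 1468 CPM, has nearly coinciding points, while H19 runs from 0.0804 to 53.5 CPM.

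No imprinted gene passed the test between genotypes. EdgeR's quasi-likelihood test gave 0 of the 28 genes an adjusted p under 0.05, the same as its 0% of all 13112 genes tested, and every adjusted p of an imprinted gene was 0.999. Of the 28, 13 had a higher and 15 a lower fitted level in Ythdf2-/-. Their median log2 fold change was -0.07, against -0.01 over all genes. An unadjusted p under 0.05 was found for 3 of 28 genes, Asb4, Plagl1 and Grb10, and for 3.63% of all genes. In 3 of 28 genes, Asb4, Plagl1 and Inpp5f, the genotypes did not overlap, and this held for 10.2% of all genes. Both shares for the imprinted genes are 10.7%, with all 4 of these genes lower in Ythdf2-/-. For a single gene, the smallest p that an exact permutation test over 6 libraries can reach is 0.1.

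**Figure D2:**
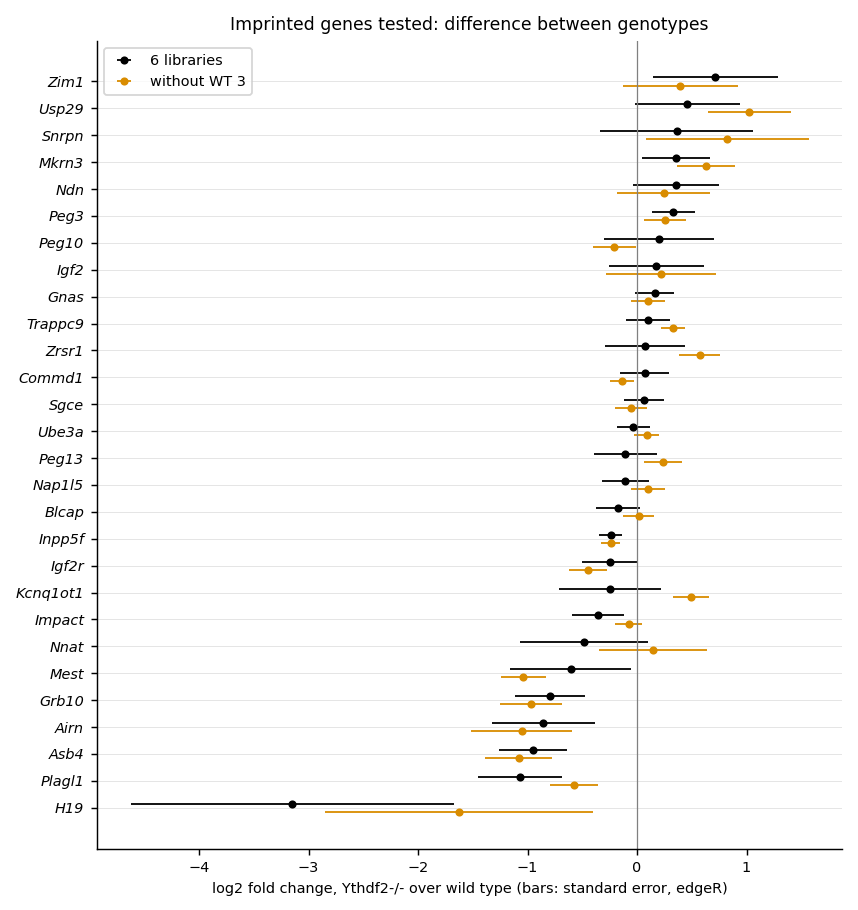
Log2 fold change of Ythdf2-/- over wild type for the 28 imprinted genes tested, with the standard error from edgeR as bars, for all 6 libraries (black) and without wild-type replicate 3 (orange). Most estimates lie within 1 log2 unit of 0, H19 has the widest bar, and several genes, Kcnq1ot1 and Peg10 among them, change side when that library is left out.

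The genes with the smallest p-values were mostly of low level. Asb4, a maternally expressed ankyrin repeat and SOCS box protein on chromosome 6, stood at 3.08, 2.44 and 2.01 CPM in wild type and at 1.19, 1.41 and 1.29 CPM in Ythdf2-/-. Each Ythdf2-/- library lay below each wild-type library, on 14 to 36 reads per library. The log2 fold change was -0.95 (SE 0.307, unadjusted p = 0.0199 and adjusted p = 0.999 by edgeR).

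Plagl1, a paternally expressed zinc finger transcription factor on chromosome 10, stood at 16.3, 14.2 and 33.8 CPM in wild type and at 12.4, 10.3 and 8.04 CPM in Ythdf2-/-. The groups did not overlap, and wild-type replicate 3 was more than 2 times as high as the other libraries. The log2 fold change was -1.07 (SE 0.383, adjusted p = 0.999 by edgeR), and -0.58 without wild-type replicate 3.

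Grb10, an adaptor that binds the insulin and IGF1 receptors, is maternally expressed in most tissues and paternally in neurons. It stood at 7.52, 6.48 and 4.57 CPM in wild type and at 3.15, 4.66 and 2.89 CPM in Ythdf2-/-, so that a single pair of libraries overlapped. The log2 fold change was -0.79 (SE 0.321, adjusted p = 0.999 by edgeR). Limma-voom with quality weights, which gave wild-type replicate 3 a weight of 0.0957, called 1 of 28 imprinted genes, and this was Grb10 at -1.05 (adjusted p = 0.0475 by limma). The same fit called 2.35% of all genes. DESeq2 called 0 of the 31 imprinted genes that it gave an adjusted p and 0.603% of all genes.

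Inpp5f, a phosphoinositide phosphatase with a brain transcript that is imprinted, had the smallest range between libraries of the 28 genes. Its levels were 95.4, 89.9 and 93.0 CPM in wild type and 78.3, 78.3 and 78.9 CPM in Ythdf2-/-. The difference was small, at a log2 fold change of -0.24 (SE 0.104, adjusted p = 0.999 by edgeR), and it ran from -0.26 to -0.22 over all alternative settings.

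**Figure D3:**
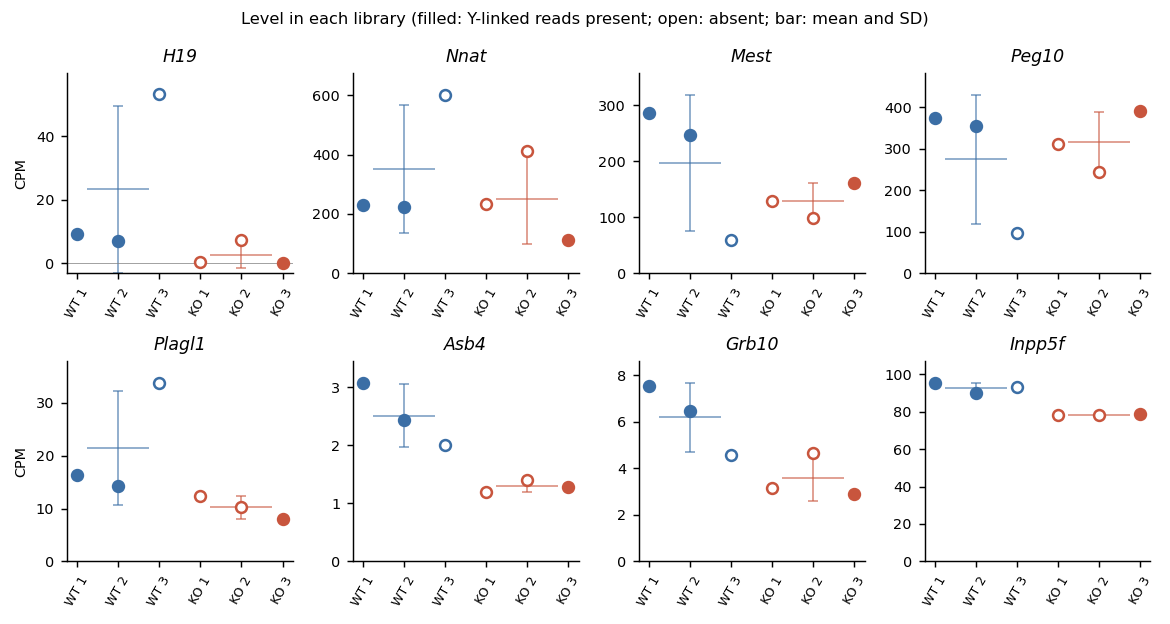
CPM in each library for 8 imprinted genes, with the mean and SD of each genotype as bars (n = 3). Points are filled where Y-linked reads were present. Wild-type replicate 3 is the highest library for H19, Nnat and Plagl1 and the lowest for Mest and Peg10, while the 3 wild-type points of Asb4 and Inpp5f all lie above the Ythdf2-/- points.

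Several imprinted genes ranged widely between libraries. In 8 of 28 the highest of the 6 libraries was over 4 times the lowest, and this was so for 13.8% of all genes. H19, a maternally expressed noncoding RNA, stood at 9.32, 7.02 and 53.5 CPM in wild type and at 0.426, 7.25 and 0.0804 CPM in Ythdf2-/-. A single read was counted in Ythdf2-/- replicate 3 and 586 in wild-type replicate 3, and the genotypes overlapped through Ythdf2-/- replicate 2. The log2 fold change was -3.15 with an SE of 1.48 (adjusted p = 0.999 by edgeR), and it was -1.63 without wild-type replicate 3 and -6.46 without Ythdf2-/- replicate 2. Igf2, the growth factor gene that shares the domain, had only 6, 15 and 10 reads in wild type and 10, 17 and 10 in Ythdf2-/-, at 0.857 ± 0.319 CPM in wild type and 0.971 ± 0.249 CPM in Ythdf2-/- (SD, n = 3 each).

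Mest, a paternally expressed protein of the hydrolase fold family, stood at 286, 247 and 59.7 CPM in wild type and at 129, 99.1 and 161 CPM in Ythdf2-/-. All 3 Ythdf2-/- libraries lay between wild-type replicate 3 and the other wild-type libraries. The log2 fold change was -0.61 (SE 0.551, adjusted p = 0.999 by edgeR). Without wild-type replicate 3 it was -1.04 (SE 0.205, adjusted p = 0.153 by edgeR), while with a term for Y-linked reads it was 0.10. The 3 libraries with Y-linked reads averaged 231 CPM and the 3 without averaged 95.9 CPM, and these sets did not overlap.

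Peg10, a paternally expressed gene derived from a retrotransposon, stood at 375, 353 and 96.1 CPM in wild type and at 311, 244 and 391 CPM in Ythdf2-/-. It too was lowest in wild-type replicate 3 and higher in every library with Y-linked reads than in those without. Its log2 fold change was 0.20 (SE 0.502, adjusted p = 0.999 by edgeR) and -0.21 without that library. Its head-to-head neighbour Sgce, which encodes epsilon-sarcoglycan and starts 102 bp away, ranged less, at 43.4, 49.6 and 35.3 CPM in wild type and 40.0, 52.2 and 42.0 CPM in Ythdf2-/-.

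Nnat stood at 230.1, 225 and 601 CPM in wild type and at 233, 411 and 111 CPM in Ythdf2-/-. Wild-type replicate 3 was the highest library, and the libraries of both genotypes overlapped. Its log2 fold change was -0.49 (SE 0.585, adjusted p = 0.999 by edgeR), and 0.15 without that library. Nnat lies inside Blcap, which stood at 48.3, 55.6 and 73.4 CPM in wild type and 55.7, 44.4 and 57.3 CPM in Ythdf2-/-. The remaining genes of wide range were low. Zim1, a maternally expressed zinc finger gene, stood at 3.85, 5.19 and 1.83 CPM in wild type and 5.45, 2.74 and 9.73 CPM in Ythdf2-/-. Snrpn stood at 0.770, 0.991 and 1.92 CPM against 1.70, 2.59 and 0.402 CPM. In both, the genotypes overlapped. Snrpn shares 2020 bp of exon with Snurf on the same strand, so its few reads may have been divided or left out in counting. Airn, the noncoding RNA that runs antisense to Igf2r, stood at 2.39, 2.21 and 1.37 CPM in wild type and 0.511, 1.41 and 1.37 CPM in Ythdf2-/-. Its log2 fold change was -0.85 (SE 0.473, adjusted p = 0.999 by edgeR), -0.51 without Ythdf2-/- replicate 1 and -1.57 with quality weights (adjusted p = 0.0622 by limma-voom).

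The other genes tested ranged less than 4-fold between their highest and lowest library. In the Peg3 domain on chromosome 7, Peg3, a zinc finger protein gene, stood at 183, 188 and 157 CPM in wild type and at 176, 211 and 276 CPM in Ythdf2-/-, with a log2 fold change of 0.33 (SE 0.196, adjusted p = 0.999 by edgeR) that was 0.14 without Ythdf2-/- replicate 3. Usp29, a ubiquitin-specific peptidase gene that starts 164 bp from Peg3 on the other strand, stood at 2.57, 2.21 and 5.85 CPM against 3.75, 6.95 and 3.86 CPM. All 3 genes of this domain had a higher fitted level in Ythdf2-/-, with no call.

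Gnas stood at 1161, 1279 and 1063 CPM in wild type and at 1195, 1261 and 1468 CPM in Ythdf2-/- (log2 fold change 0.16, SE 0.178). Impact, a regulator of the translation kinase Gcn2, stood at 71.7, 72.8 and 119 CPM against 67.1, 77.3 and 61.3 CPM, a log2 fold change of -0.36 (SE 0.234). Without wild-type replicate 3 these were 0.10 for Gnas and -0.08 for Impact. Without Ythdf2-/- replicate 3, Gnas was at 0.07. Neither passed the test. Wild-type replicate 3 was the lowest of the 6 libraries for Gnas and the highest for Impact.

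Kcnq1ot1, the long paternally expressed noncoding RNA of chromosome 7, stood at 75.6, 69.8 and 218 CPM in wild type and at 97.1, 86.2 and 123 CPM in Ythdf2-/-. Its log2 fold change was -0.25 with all libraries (SE 0.466, adjusted p = 0.999 by edgeR) and 0.49 without wild-type replicate 3 (SE 0.164, adjusted p = 0.242 by edgeR). Igf2r, the maternally expressed receptor that clears IGF2, stood at 75.4, 72.7 and 44.8 CPM against 51.3, 66.6 and 44.7 CPM. These 2 genes show opposite positions of wild-type replicate 3, highest in the noncoding RNA and lowest of its genotype in the receptor. In the Snrpn-Ube3a domain, Ndn, a MAGE family gene of postmitotic neurons, stood at 31.6, 29.1 and 23.3 CPM against 26.2, 59.0 and 22.1 CPM. Mkrn3 ran from 6.16 to 11.2 CPM and Ube3a, an E3 ubiquitin ligase imprinted in neurons, from 88.3 to 115 CPM. Nap1l5, an intronless paternally expressed gene inside Herc3, stood at 116, 110.4 and 165 CPM against 103.5, 145 and 114 CPM, and the genotypes overlapped.

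Wild-type replicate 3 was the highest of the 6 libraries for 11 of the 28 genes and the lowest for 7. It was an extreme for 64.3% of the imprinted genes, and for 68.2% of all genes. Without it, 0 of 29 imprinted genes tested passed an adjusted p of 0.05, against 0.0151% of all genes. An unadjusted p under 0.05 was then found for 10 of 29, against 16.6% of all genes, and the genotypes did not overlap in 14 of 29, against 38.9%. Of the 10, Asb4, Grb10, Igf2r, Inpp5f, Mest and Plagl1 were lower in Ythdf2-/-, and Kcnq1ot1, Trappc9, Usp29 and Zrsr1 were higher. Both remaining wild-type libraries had Y-linked reads and only 1 of the 3 Ythdf2-/- libraries did, so in this comparison genotype and Y-linked reads are more closely tied than in the full set.

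Compared within libraries of like Y-linked reads, which leaves 1 or 2 libraries on a side and no test, 13 of the 28 genes had the same direction in both sets, 8 lower and 5 higher in Ythdf2-/-. The share over all genes was not computed, so this count shows nothing particular to the imprinted genes. Plagl1 had a log2 ratio of -0.92 among libraries with Y-linked reads and -1.58 among those without. Mest had -0.73 and 0.93, and Kcnq1ot1 0.76 and -1.25. Regardless of genotype, 6 of the 28 genes did not overlap between libraries with and without Y-linked reads, and 26.8% of all genes did not. Mest and Peg10 were higher with these reads, and Zrsr1, Mkrn3, Snrpn and Nnat were lower.

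Commd1, a copper homeostasis gene, stood at 66.3, 62.2 and 38.4 CPM in wild type and 59.7, 62.9 and 52.6 CPM in Ythdf2-/-, and Zrsr1 at 16.5, 18.2 and 38.7 CPM against 26.2, 30.3 and 20.7 CPM. Trappc9, a subunit gene of a vesicle trafficking complex, stood at 58.2, 60.8 and 89.5 CPM against 72.2, 69.2 and 82.6 CPM, and Peg13 at 34.9, 34.8 and 62.9 CPM against 35.3, 50.7 and 37.1 CPM. Wild-type replicate 3 was the lowest library for Commd1 and the highest for the other 3, and the genotypes overlapped in all 4.

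Ratios of reads between neighbours within a domain compare a pair of genes in the same library and need no scaling between libraries. The ratio of Igf2 to H19 ran from 0.0171 in wild-type replicate 3 to 10.0 in Ythdf2-/- replicate 3, where it rests on a single H19 read. It was 0.0551, 0.163 and 0.0171 in wild type and 2, 0.174 and 10.0 in Ythdf2-/-, so that all 3 Ythdf2-/- libraries lay above wild type, by a narrow margin in replicate 2. Sgce to Peg10 was 0.116, 0.140 and 0.367 in wild type and 0.129, 0.214 and 0.108 in Ythdf2-/-, a 3.41-fold range with wild-type replicate 3 at the top. The ratio of Commd1 to Zrsr1, a splicing factor gene inside an intron of Commd1, was 4.02, 3.43 and 0.991 against 2.28, 2.07 and 2.54. Both of these ratios overlapped between genotypes, Commd1 to Zrsr1 through wild-type replicate 3 alone.

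Blcap to Nnat ran from 0.108 to 0.517 and Usp29 to Peg3 from 0.0118 to 0.0373. Ndn to Snrpn ran from 12.1 to 55.0, on 5 to 35 Snrpn reads. The steadiest pair was Trappc9 and the noncoding RNA Peg13 in its intron, at 1.67, 1.75 and 1.42 in wild type and 2.05, 1.37 and 2.22 in Ythdf2-/-. Airn to Igf2r was 0.0318, 0.0304 and 0.0306 in the wild-type libraries, and 0.00997, 0.0211 and 0.0306 in Ythdf2-/-. Of the 8 pairs given, Igf2 to H19 was the only ratio whose libraries did not overlap between genotypes. That separation rests on 15 Igf2 and 92 H19 reads in wild-type replicate 2 against 17 and 98 in Ythdf2-/- replicate 2. The share of other gene pairs without overlap was not computed. The ratios of Rian, Mirg and Dlk1 to Meg3 rest on at most 14 reads and are not given.

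**Figure D4:**
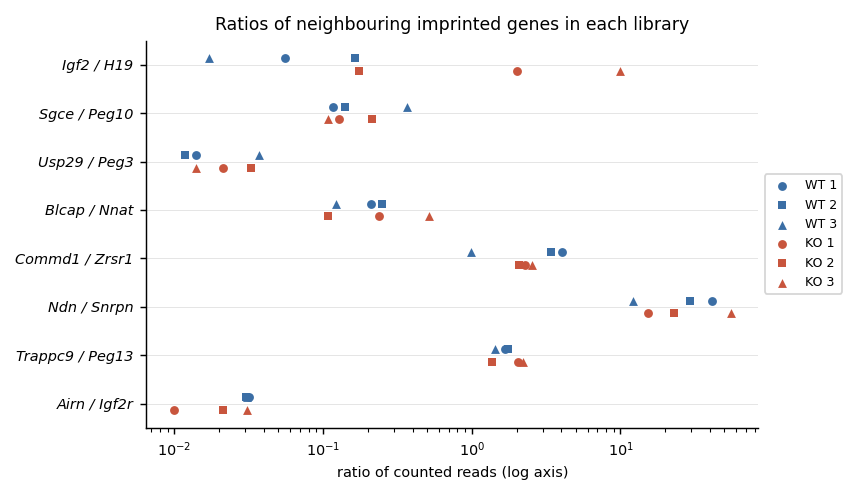
Ratio of counted reads of neighbouring imprinted genes in each library, on a log axis (blue wild type, red Ythdf2-/-, marker shape the replicate number). Trappc9 to Peg13 stays between 1.37 and 2.22, while Igf2 to H19 spreads from 0.0171 to 10.0.

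By parental class, the 18 paternally expressed genes tested split into 9 higher and 9 lower (median log2 fold change -0.02), and the 5 maternally expressed genes into 2 and 3 (median -0.25). With all 6 libraries, the 4 noncoding RNAs tested (H19, Kcnq1ot1, Airn and Peg13) were all lower in fitted level, none past the test, and Kcnq1ot1 and Peg13 turned higher without wild-type replicate 3 and with quality weights, and Peg13 also without Ythdf2-/- replicate 1. Over a second list of 35 imprinted genes, 34 were in the table and 20 were tested, with 11 higher, 9 lower, a median of 0.02 and 0 with an unadjusted p under 0.05. Cd81, Gatm and Gab1 had the most reads among them, and Cd81, a tetraspanin, stood at 672, 704 and 1061 CPM against 629, 619 and 565 CPM.

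Among 26 genes listed for setting or keeping imprints, 24 were tested, 7 higher and 17 lower in Ythdf2-/-, with a median of -0.06 and 0 with an unadjusted p under 0.05. The list also holds Tet1, Tet2 and Tet3, which act in removing DNA methylation and were among the 7 higher. Rad21, Trim28 and Smc1a had the most reads. Zfp57 itself stood at 9.83, 7.85 and 23.4 CPM in wild type and 9.03, 20.0 and 7.32 CPM in Ythdf2-/-. The genes that keep methylation through replication were chosen for mention after their values were seen. Uhrf1, which brings Dnmt1 to newly copied DNA, stood at 186, 161 and 3.11 CPM in wild type and at 120, 124 and 137 CPM in Ythdf2-/-, and Dnmt1 at 298, 258 and 101 CPM against 187, 212 and 212 CPM. Wild-type replicate 3 was lowest for both. These levels moved with that library, and their part in the levels of the imprinted genes was not tested.

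Some markers of neural progenitors and of other cell types moved with the same library, in both directions. Among genes with an unadjusted p under 0.05 by edgeR, Gfap, an astrocyte filament gene, stood at 436, 625 and 3041 CPM in wild type and 127, 87.7 and 5.55 CPM in Ythdf2-/-. The myelin gene Mbp stood at 6.67, 8.85 and 572 CPM against 4.94, 4.29 and 1.21 CPM, and Dcx, a marker of immature neurons, at 10.0, 13.1 and 314 CPM against 8.35, 11.3 and 9.89 CPM. Sox10, of the oligodendrocyte lineage, was also highest in wild-type replicate 3. So was the progenitor marker Prom1, at 5.39, 5.41 and 17.9 CPM against 1.87, 2.29 and 1.13 CPM. The genotypes overlapped for Dcx and Sox10 and did not for Gfap, Mbp and Prom1. In the same lists Olig1, Olig2, Cspg4 and Gap43 were lowest in it, at 546, 323, 89.7 and 55.7 CPM. Stmn2 and Cspg4, which also had an unadjusted p under 0.05, did not overlap between genotypes either, with 1.45 to 1.54 CPM in wild type against 0.0852 to 0.592 CPM for Stmn2 and 89.7 to 96.7 against 110.2 to 144.5 CPM for Cspg4. The part of cell makeup in the imprinted gene levels was not tested.

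The m6A consensus is commonly read as GGACT on the RNA strand. Over the exons of the 28 genes it occurred a median of 0.936 times per kilobase, against 1.02 over 13045 genes tested that had a position, where the middle 50% of genes held 0.626 to 1.49. Ndn had the highest density at 3.03 per kilobase, H19 followed at 2.62, and Sgce and Mkrn3 had no match. These are letters in the reference and not measured m6A.

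Exons of 8 of the 39 genes overlap those of another gene on the opposite strand, and the strand setting of the counting is not given in the sources used here, so their counts are uncertain to that extent. Mest and Copg2, a coatomer subunit gene, share 913 bp of exon. Counted reads for Copg2 were 984, 1128 and 942 in wild type and 992, 1275 and 982 in Ythdf2-/-, without the low value that Mest had in wild-type replicate 3. A second deposited table per library, with expected counts, gave Copg2 2211, 2197 and 500.0 in wild type and 1083, 827 and 1440 in Ythdf2-/-. These values followed the counted reads of Mest, at 0.617 to 0.766 of them in each library, while Mest itself had 33.0 to 59.0 expected counts.

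**Figure D5:**
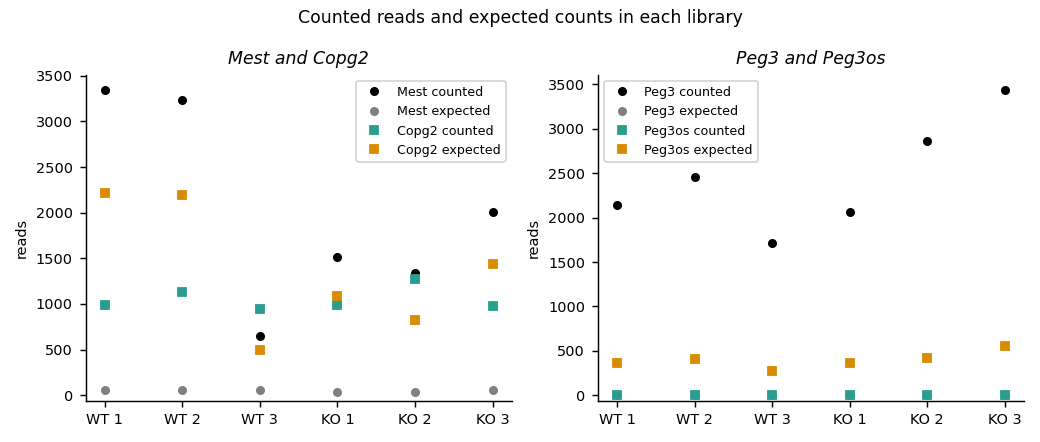
Counted reads (first deposited table) and expected counts (second table) in each library for Mest and Copg2 and for Peg3 and Peg3os, pairs that overlap on opposite strands. The expected counts of Copg2 follow the counted reads of Mest across libraries, and those of Peg3os, from 280 to 557, follow Peg3, although Peg3os has 0 counted reads.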

How the data were processed

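Input RNA-seq of 3 wild-type and 3 Ythdf2-/- NSPC samples was used, grouped by the genotype and number in the sample labels. The authors fragmented mRNA, prepared stranded libraries, mapped the reads with TopHat (genome mm10) and deposited unnormalised raw counts per gene. A second deposited table holds expected counts per gene, and the submitters' processing notes name Bowtie2 2.2.9, RSEM 1.2.15 and featureCounts, with no strand setting. Expected counts came to 1.97% to 2.40% of the counted reads of a library and were set beside the counts only. They entered no test and were not rounded.

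Raw counts were scaled to CPM with TMM factors and tested with edgeR 4.0.16 in R 4.3.3 (filterByExpr, glmQLFit with the robust option, glmQLFTest), in a model of genotype alone, and p-values were adjusted by Benjamini-Hochberg over 13112 genes. Standard errors were derived from the fold change and the F statistic. Between 12952 and 13178 genes per library had at least 10 reads, and replicates differed by more than sampling noise (chi-square per degree of freedom 4.57 to 140). The fits were also run on simulated counts with the same spread in every library and no outlying library. That run does not show how the fits behave with a library such as wild-type replicate 3. Alternatives were DESeq2 1.42.0, limma-voom 3.58.1 with quality weights, other scalings and filters, a replicate block, a Y-linked read term, and leaving out each library, 14 in all, with 1 added after seeing the data.

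The imprinted genes, lists and naming rule were chosen with earlier results of these data known. Library values are given for the 8 imprinted genes of smallest p, the 6 highest per length, those whose genotypes do not overlap or whose range exceeds 4-fold with at least 30 reads, and those in the domain ratios. In other lists, genes with an unadjusted p under 0.05, or else the 3 with the most reads, are named. Positions of all 39 genes, exon lengths and promoter and microRNA sequences came from RefSeq GRCm38.p6, with Python 3.11.15 and pysam 0.24.0. Some list members are not reported by name.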

Additional observations from a re-analysis of the deposited data

Results flagged for a closer look

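Signal appeared in the expected counts, a table that the comparisons do not use, for 3 genes with at most 2 counted reads in any library. Peg3os, which lies antisense within Peg3 with 865 bp of shared exon, had 366, 405 and 280 expected counts in wild type and 364, 425 and 557 in Ythdf2-/-, with 0 counted reads throughout. Set against the counted reads of Peg3, these are 0.149 to 0.176 in every library. Zim3, which shares 2582 bp of exon with Usp29 on the opposite strand, had 16 to 39 expected counts and 0 counted reads, or 0.415 to 0.568 of the counted reads of Usp29. Rtl1, which lies antisense to several microRNA genes, had 24.9 to 46.1 expected counts and 0 to 2 counted reads. Over the 9159 genes with more than 1000 counted reads, the median gene had 0.169% as many expected counts as counted reads. Kcnq1ot1 had 784 to 1650 expected counts beside 884 to 2390 counted reads. The strand setting of either table is not given in the sources used here, and the cause was not tested.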

How the results depend on the processing

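The count of imprinted genes past an adjusted p of 0.05 was 0 in each setting apart from limma-voom with quality weights, where it was 1. The count with an unadjusted p under 0.05, 3 with all libraries, was 5 with DESeq2 (5.57% of all genes), 13 with quality weights (27.9%), 7 with the term for Y-linked reads (10.95%) and 9 with that term and without wild-type replicate 3 (13.6%), a setting chosen after seeing the data. Leaving out a library moved it between 0 and 10, and the number with genotypes that do not overlap between 3 and 14, both highest without wild-type replicate 3. The first count was 1 when Ythdf2-/- replicate 1 or either of the other wild-type libraries was left out and 0 without Ythdf2-/- replicate 3, where 1.85% to 2.82% of all genes had such a p. The second was 5 without wild-type replicate 2 (14.49% of all genes) and 7 without Ythdf2-/- replicate 2 (22.2%). The median log2 fold change of the imprinted genes, -0.07 with all libraries, was -0.21 with DESeq2 and -0.19 in the edgeR fit with no filter, both of which cover 36 genes in place of 28. When each library was left out in turn it ran from -0.20 without Ythdf2-/- replicate 2 to 0.087 without wild-type replicate 3, and was 0.00 without Ythdf2-/- replicate 1. Of single genes, Mest turned to 0.10 with the term for Y-linked reads, Peg10 to -0.15 and Kcnq1ot1 to 0.47 with quality weights, Kcnq1ot1 to 0.76 with the Y-linked term and without wild-type replicate 3, and Nnat to 0.15 without that library. Leaving out each library in turn gave -0.21 to 0.49 for Peg10, -1.02 to 0.15 for Nnat, -0.52 to 0.49 for Kcnq1ot1 and -1.04 to -0.24 for Mest. The cause was not tested.

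With the replicate number as a block, 0 imprinted genes and 1.396% of all genes had an unadjusted p under 0.05. The labels do not say that a number marks a shared litter or day. Same-numbered libraries had correlations of deviations of -0.25, -0.25 and -0.40. With so few libraries per genotype, these values cannot show whether same-numbered samples share a litter or day.

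The log2 fold change of Ythdf2 stayed between -2.78 and -2.54 and passed an adjusted p of 0.05 with DESeq2 size factors (-2.67), DESeq2 (-2.66), quality weights (-2.61), no filter (-2.64), at least 10 reads in every library (-2.66), the term for Y-linked reads (-2.75) and without wild-type replicate 3 (-2.54). Ythdf2 did not pass in the main edgeR fit (adjusted p = 0.0547), with library totals without TMM (0.0722 by edgeR) or with the replicate block. Nor did it pass when any library besides wild-type replicate 3 was left out (adjusted p = 0.246 to 0.866 by edgeR). With the Y-linked term and without wild-type replicate 3 it was at 0.0697 by edgeR. A missing call therefore does not show that a gene is unchanged. Depth limits genes such as Asb4, Airn and Snrpn, with at most 36 reads in any library.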
